A study of Mus musculus with 23 samples.

Results

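RNA of 9 B cell lymphoma lines was compared with RNA of 6 tumour-free spleens of Atm knockout mice, 15 of the 22 samples of the series, across all genes that the arrays measured. The lines are the arrays whose titles end in BCL and the spleens those whose titles end in KO. The lines were grown in suspension in serum-supplemented medium and came from spleens with a B cell lymphoma. Both groups carried the Atm knockout and the Cd3e knockout on a mixed C57BL/6 x 129 background. All 6 knockout spleens were labelled female, while the labels leave the sex of the lines undetermined and give no age for either group. The other 7 samples, spleens of Atm wild-type mice that also lacked Cd3e, entered the fit to share its estimate of the spread. They also counted in the filter for tested genes and in the choice of each gene's probe. The design text counts 10 lymphoma lines, but 1 array is titled as a repeat, and the line concerned, number 8 here, was measured on 2 arrays that were averaged. The labels do not state for every sample that it came from a separate animal, so p-values measure the spread between these samples.

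Atm encodes a kinase that signals DNA double-strand breaks, and Cd3e encodes part of the T cell antigen receptor, without which mature T cells do not form. Mice without Atm are prone to lymphoid tumours. A spleen is a mixture of resting B cells with myeloid, erythroid, natural killer and stromal cells, whereas a lymphoma line is a dividing population of 1 cell lineage kept in rich medium. The comparison therefore joins tumour against normal tissue, culture against tissue and a single lineage against a mixture, and these 3 cannot be told apart here. In the spleens, fewer cells of a type and less RNA per cell cannot be told apart either. To look beyond the loss of other cell types, the description keeps to the 11634 genes that the scanner software marked as well above background in at least 5 of 9 lines and at least 4 of 6 knockout spleens, out of 13742 genes tested.

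Each level below is the log2 processed signal of a gene's probe relative to the 75th percentile of its array, so 0 is the level of that percentile. A difference is the mean of the lines minus the mean of the knockout spleens on this log2 scale, given with its standard error (SE) from limma, and a gene is said to rise or fall where the limma p, after Benjamini-Hochberg adjustment across the tested genes, was under 0.05. The 75th percentile was a signal of 491 to 788 in the lines and 668 to 896 in the knockout spleens, and 54.9% to 62.3% and 62.6% to 67.7% of spots were well above background. The lines varied more than the spleens. Across the 11634 genes, lines correlated with each other at r = 0.92 to 0.98, spleens with each other at 0.98 to 0.99, and lines with spleens at 0.83 to 0.88. The median SD of a gene was 0.38 over the lines and 0.21 over the spleens.

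The lines expressed the core B cell genes, while most markers of other cell types fell in them. Of 20 core B cell genes, 6 rose and 8 fell, and 19 to 20 of them were well above background in every line. Of the markers tested, 16 of 16 natural killer, 17 of 18 macrophage and monocyte and 13 of 13 neutrophil markers fell in the lines. So did 13 of 16 erythroid, 10 of 11 dendritic cell, 10 of 12 megakaryocyte and 12 of 17 stromal markers. The T cell markers fell in 11 of 16 cases. The share over all tested genes was 28.9%. A marker could pass the filter through the spleens alone. Below background in every line were 5 natural killer and 5 macrophage and monocyte markers. Above background in both groups, 5 of 5 natural killer, 7 of 8 macrophage and monocyte and 3 of 3 neutrophil markers fell. The share over all such genes was 22.1%. Both groups lacked Cd3e, without which mature T cells do not form. Which cells of the spleens gave the T cell markers was not tested. The 3 T cell markers that rose were Cd3d, Cd3e and Cd3g, chains of the complex that signals for the T cell receptor, and Cd3g was at -2.21 to 4.41 in the lines and -5.01 to -4.39 in the spleens, a difference of 7.35 ± 0.78. The mean log2 level of the macrophage and monocyte markers was -6.23 to -4.28 in the lines and 1.57 to 2.35 in the spleens, and Mertk, Fcgr1, Ccr2 and Cd163 were among those below background in every line. The mean level of the natural killer markers was -7.27 to -5.06 in the lines and 1.30 to 1.98 in the spleens. Plasma cell markers split, with 6 of 13 higher and 5 lower. The part of these cells in the decreases described below was not tested, beyond the requirement that a gene be above background in most lines.

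The Atm probe was at -4.38 to -2.77 in the lines and -2.69 to -2.07 in the knockout spleens, a difference of -0.94 ± 0.20 that was no longer called with median centring (-0.36) or normexp background correction (-0.35). The Cd3e probe was at -3.30 to -1.22 in the lines and -4.65 to -3.86 in the spleens. The labels do not say where in the 2 genes the deletions lie, so neither probe checks the genotype. Cd3g, the gene of another chain of the same receptor complex, was at -2.21 in the lowest line, 3.51 in the median line and 4.41 in the highest line, against -5.01 to -4.39 in the spleens. The groups did not overlap, and the difference was 7.35 ± 0.78 (limma adjusted p = 2.88e-08).

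Among all 13742 tested genes, 5717 rose in the lines (41.6%) and 3965 fell (28.9%). Within the 11634 genes above background in both groups, 5500 rose (47.3%) and 2571 fell (22.1%), and the groups did not overlap for 3206 of those that rose (27.6% of the 11634) and 1311 of those that fell (11.3%). Changes of at least 2-fold were made by 2260 and 1441 genes and changes of at least 4-fold by 622 and 767, so increases were the more frequent at 2-fold and decreases at 4-fold. This order depended on the genes counted. Over all 13742 tested genes decreases were the more frequent at both sizes (2465 higher and 2790 lower at 2-fold, 780 and 1891 at 4-fold), and over the 10343 genes above background in all 15 samples increases were (2163 and 985, 566 and 421). The median difference of the 11634 genes was 0.31. Centring each array on its median instead raised this median to 0.90 and the calls to 8095 higher and 1343 lower, so that 85.8% rather than 68.1% of the calls were increases. Over all tested genes that setting gave 8440 higher and 2598 lower, and the median went from 0.18 to 0.77. A gene list is therefore read against 0.31 and against the shares of 47.3% and 22.1%. The lists and families were grouped in 5 classes beside the markers, and 28 of the lists are described with their values.

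The classes moved apart from each other. Of 454 genes of translation, protein folding and cell division 381 rose and 13 fell, and of 1052 metabolic genes 621 rose and 200 fell. Of 688 transcription factor genes 261 rose and 202 fell, of 893 signalling genes 292 rose and 320 fell, and of 406 genes of surface proteins 108 rose and 175 fell. The class medians were 0.81 for machinery, 0.55 for metabolism, 0.06 for transcription factors, -0.04 for signalling and -0.28 for surface proteins, and with median centring the last of these turned to 0.31 and that of signalling to 0.55.

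**Figure D1:**
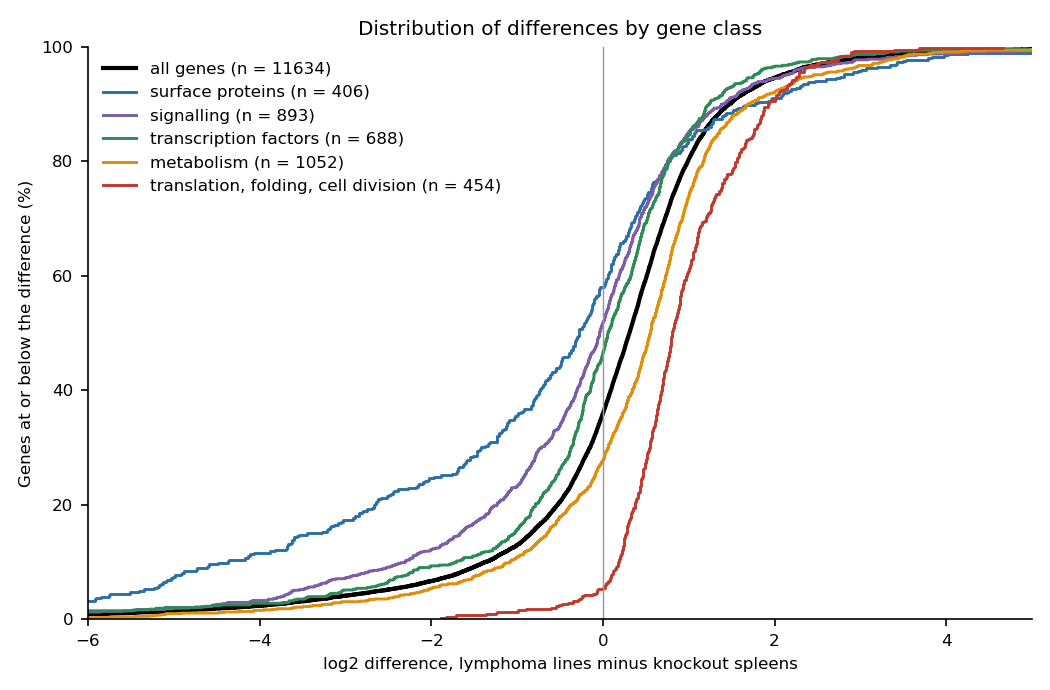
Cumulative distribution of the log2 difference (horizontal axis, lymphoma lines minus knockout spleens) of genes above background in both groups, as the percentage of genes at or below each difference (vertical axis), for all 11634 genes and for 5 classes. The curve of translation, folding and cell division genes lies to the right of that of all genes, and the curve of surface proteins lies to its left below a difference of 0, with 175 of 406 surface protein genes lower in the lines.

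**Figure D2:**
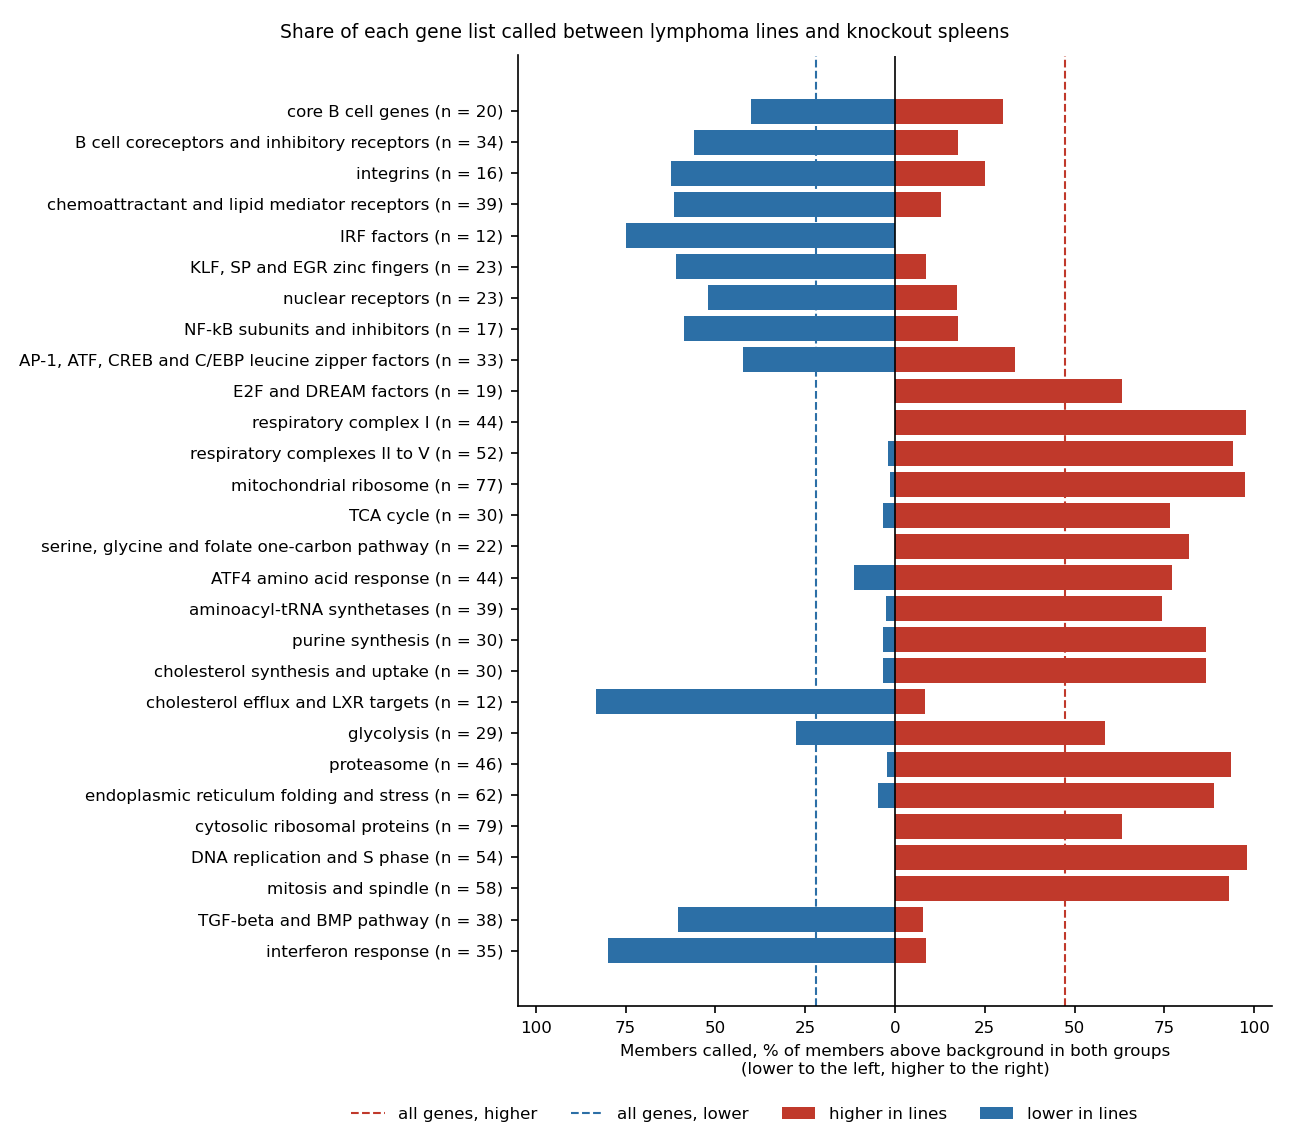
Percentage of the members of each gene list that rose (red, to the right) or fell (blue, to the left) in the lymphoma lines, out of members above background in both groups (n beside each name), with dashed lines at the 47.3% and 22.1% of all 11634 genes. Respiratory complex I, the mitochondrial ribosome and DNA replication lie far to the right, and the interferon response, cholesterol efflux and IRF lists far to the left.

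Among genes well above background in all 15 samples, the largest increases joined signalling proteins, an amino acid enzyme and a transcription factor. Plch2, a phospholipase C that releases inositol trisphosphate and diacylglycerol, had levels of 4.39, 7.04 and 7.86 in the lowest, median and highest line and -5.86, -4.66 and -3.71 in the spleens. Every line lay above every spleen by far, and the difference was 11.45 ± 0.41 (limma adjusted p = 3.55e-16). Cth, the enzyme that forms cysteine from cystathionine, followed with 7.92 ± 0.22, Gnaz, an inhibitory G protein alpha subunit, with 7.41 ± 0.28, and Ncan, a chondroitin sulphate proteoglycan of nervous tissue, with 7.25 ± 0.38. Adamts7, a secreted metalloproteinase, rose by 7.02 ± 0.41, Mef2b, a transcription factor of germinal centre B cells, by 6.99 ± 0.18, and Timd2, a surface receptor that binds ferritin, by 6.97 ± 0.23. Serpinc1, the antithrombin gene, rose by 6.92 ± 0.22 and Rgs13, a brake on G protein signalling found in germinal centre B cells, by 6.58 ± 0.23. The largest decreases among genes above background in all 15 samples held many genes known from other blood cells. Hba-a1, the haemoglobin alpha chain, was at -4.86, -3.98 and 0.97 in the lowest, median and highest line and at 6.76 to 9.09 in the spleens. Mpo, a neutrophil granule enzyme, was lower by 9.37 on the log2 scale, with levels of -5.38 to -3.55 in the lines, Serpinb1a, a protease inhibitor of granulocytes, had a difference of -8.90 ± 0.48 and Car2, the erythrocyte carbonic anhydrase, one of -8.56 ± 0.47. Hdc, which makes histamine, differed by -8.17, Plac8, a small protein of leukocytes, by -7.63 ± 0.45, and Fcer1g, the signalling chain of Fc receptors, by -7.46 ± 0.22. The membrane proteins Ms4a4b and Ms4a4c, with -7.54 and -7.39, and Cnn3, an actin binding protein, with -7.43, complete the 10 largest decreases.

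Surface proteins had the highest share of decreases among the 5 classes, 43.1% of 406 genes, though with median centring more of them were higher (186) than lower (136). B cells read their surroundings through the antigen receptor and its coreceptors, integrins and other adhesion molecules, and G protein-coupled receptors that guide them into follicles, to the follicle border and back to the blood. Of 34 coreceptors and inhibitory receptors above background in both groups, 6 rose and 19 fell, with a median difference of -0.87. The integrins had 4 higher and 10 lower of 16 and a median of -2.02, and the chemoattractant and lipid mediator receptors 5 higher and 24 lower of 39 and a median of -1.04. These 3 medians stayed negative under each of the 4 other scalings or background corrections tried. In single samples the median of the integrin list, each gene relative to its mean over the spleens, was -2.24 to -1.36 in the lines and -0.21 to 0.18 in the spleens. Beside these lists, the macrophage and monocyte markers fell in 17 of 18 tested cases, and in 7 of 8 above background in both groups. Several members of the lists, such as Itgam and Itgax, are also used by myeloid cells.

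The differences of the pan-B receptors were small next to these. Cd79b, a signalling chain of the antigen receptor, was at 7.21 to 8.25 in the lines and 7.24 to 7.78 in the spleens, and the difference of 0.20 ± 0.15 did not pass the test (limma adjusted p = 0.247). Ms4a1, which encodes CD20, rose by 0.30 ± 0.11 with overlapping groups, quantile normalization turned it to -0.14, and it was not called with normexp (0.19). Cd79a was called at 0.43 ± 0.19 (limma adjusted p = 0.0449), but lost the call in 9 of the 15 fits that left out 1 sample. Vpreb3, a chaperone of the antigen receptor in immature B cells, spanned -5.66 to 1.89 in the lines, with 8 of 9 well above background, against 4.33 to 4.95 in the spleens.

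Among surface proteins of splenic B cells, Cr2, Cd1d1, Ccr7 and Ccr6 had large decreases, while the guidance receptors Cxcr4 and Cxcr5 differed less. Cr2, the complement receptor that marks follicular and most of all marginal zone B cells, was at -5.96, -3.61 and -1.03 in the lowest, median and highest line, with 8 of 9 well above background, and at 3.52 to 4.02 in the spleens. The difference was -7.25 ± 0.49, or -4.44 with the other tested probe of Cr2. Cd1d1, which presents lipid antigens and is also high on marginal zone B cells, was at -2.35, -1.49 and 0.25 in the lines and 4.30, 4.49 and 4.77 in the spleens, with no overlap and a difference of -5.85 ± 0.30 (limma adjusted p = 2.18e-13). Ccr7, the receptor that draws B cells to the T zone border, was at -8.07 to -0.16 in the lines, 7 of 9 above background, and at 4.79 to 5.70 in the spleens. Ccr7 is also among the dendritic cell markers, and the part of those cells in its decrease was not tested. For Ccr6, a receptor of mature and memory B cells, 8 of 9 lines were above background, and the difference was -8.64 ± 0.30. Cxcr4, a receptor of the stromal chemokine, fell by 1.69 on the log2 scale, with levels of 0.49 to 1.86 in the lines and 2.18 to 3.62 in the spleens. Cxcr5, the receptor that brings B cells into follicles, was close to the threshold at -0.34 ± 0.15 (limma adjusted p = 0.0463), the call was lost with the slide as a fixed block (-0.27) or a random block (-0.31), and median centring turned it to 0.24. It also lost the call in 8 of the 15 fits without 1 sample.

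Against this trend S1pr2, the sphingosine phosphate receptor that holds germinal centre B cells in place, rose. Its levels were -1.06, -0.36 and 0.76 in the lowest, median and highest line and -4.67, -4.23 and -3.99 in the spleens. The groups stood well apart, and the difference was 3.98 ± 0.23 (limma adjusted p = 1.23e-12). Gpr55, a receptor for lysophosphatidylinositol, rose by 3.42 ± 0.15, or 2.08 with normexp background correction.

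Single integrin chains moved in both directions. Itga4, the alpha chain that binds vascular adhesion molecules and fibronectin, was at -4.45, -2.83 and -1.92 in the lowest, median and highest line and at 1.65, 1.80 and 2.11 in the spleens. All 9 lines lay far below the spleens, a difference of -4.75 ± 0.29 (limma adjusted p = 3.74e-12). Itgb1, the beta chain with which it pairs, went the other way, from -0.37 to 0.35 in the spleens to 1.52 to 2.70 in the lines, and rose by 2.25 ± 0.16. Itgb5, a partner of the alpha V chain, was above background in 7 of 9 lines and differed by -5.90 ± 0.85. Cd44, the hyaluronan receptor, rose by 1.52 ± 0.17, with 4.22 in the lowest line and 5.13 to 5.43 in the others against 3.15 to 4.11 in the spleens. Among other adhesion molecules Nectin4 rose by 3.83 ± 0.29 and Nectin2 by 2.91 ± 0.28. Their other tested probes differed by 0.85 and 0.79, and Nectin4 was at 2.45 with normexp background correction.

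Other surface genes that rose are known from activated B cells, from death signalling or from other tissues, but their families held decreases too. Of 21 costimulatory and checkpoint molecules above background in both groups 7 rose and 11 fell (median -1.55, or -0.14 with normexp background correction). Of 18 TNF receptors 6 rose and 9 fell (median -0.25), and of 9 TNF ligands 3 rose and 2 fell (median -0.39). Havcr1, a receptor for phosphatidylserine of the TIM family, was at 1.79, 2.46 and 3.17 in the lowest, median and highest line and at -3.76, -3.60 and -3.39 in the spleens. The spread within each group was small beside the gap of 6.04 ± 0.17 (limma adjusted p = 5.57e-18). Fas, the death receptor that is raised on germinal centre B cells, went from -0.31 to 0.29 in the spleens to 3.64 to 4.83 in the lines, a rise of 4.26 ± 0.14. Cd80, a ligand that costimulates T cells, was at 0.73 to 1.53 in the lines and -2.52 to -1.59 in the spleens and rose by 3.19 ± 0.17. Igf2r, the receptor that sorts enzymes to lysosomes by mannose 6-phosphate, rose by 2.97 ± 0.12, the tetraspanin Cd9 by 2.47 ± 0.15 and Ryk, a Wnt receptor, by 3.79 ± 0.18. Tnfsf9, a costimulatory ligand of the TNF family, rose by 3.42 ± 0.20 (2.27 with normexp background correction), Slamf9 by 2.81 ± 0.20 and Slamf6, a receptor that binds its own kind on neighbouring lymphocytes, by 1.51 ± 0.09. Trpm5, a cation channel known from taste cells, rose by 4.98 ± 0.27. Decreases outside the families above included Abcb9, a lysosomal peptide transporter (-6.37 ± 0.26), the tetraspanins Tspan33 (-6.35 ± 0.61) and Cd63 (-5.74 ± 0.37), and Sema4a, a semaphorin of immune cells (-5.17 ± 0.34). Il4ra, a chain of the interleukin 4 receptor, fell by 1.63 on the log2 scale, from 3.86 to 4.74 in the spleens to 2.19 to 3.61 in the lines.

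**Figure D3:**
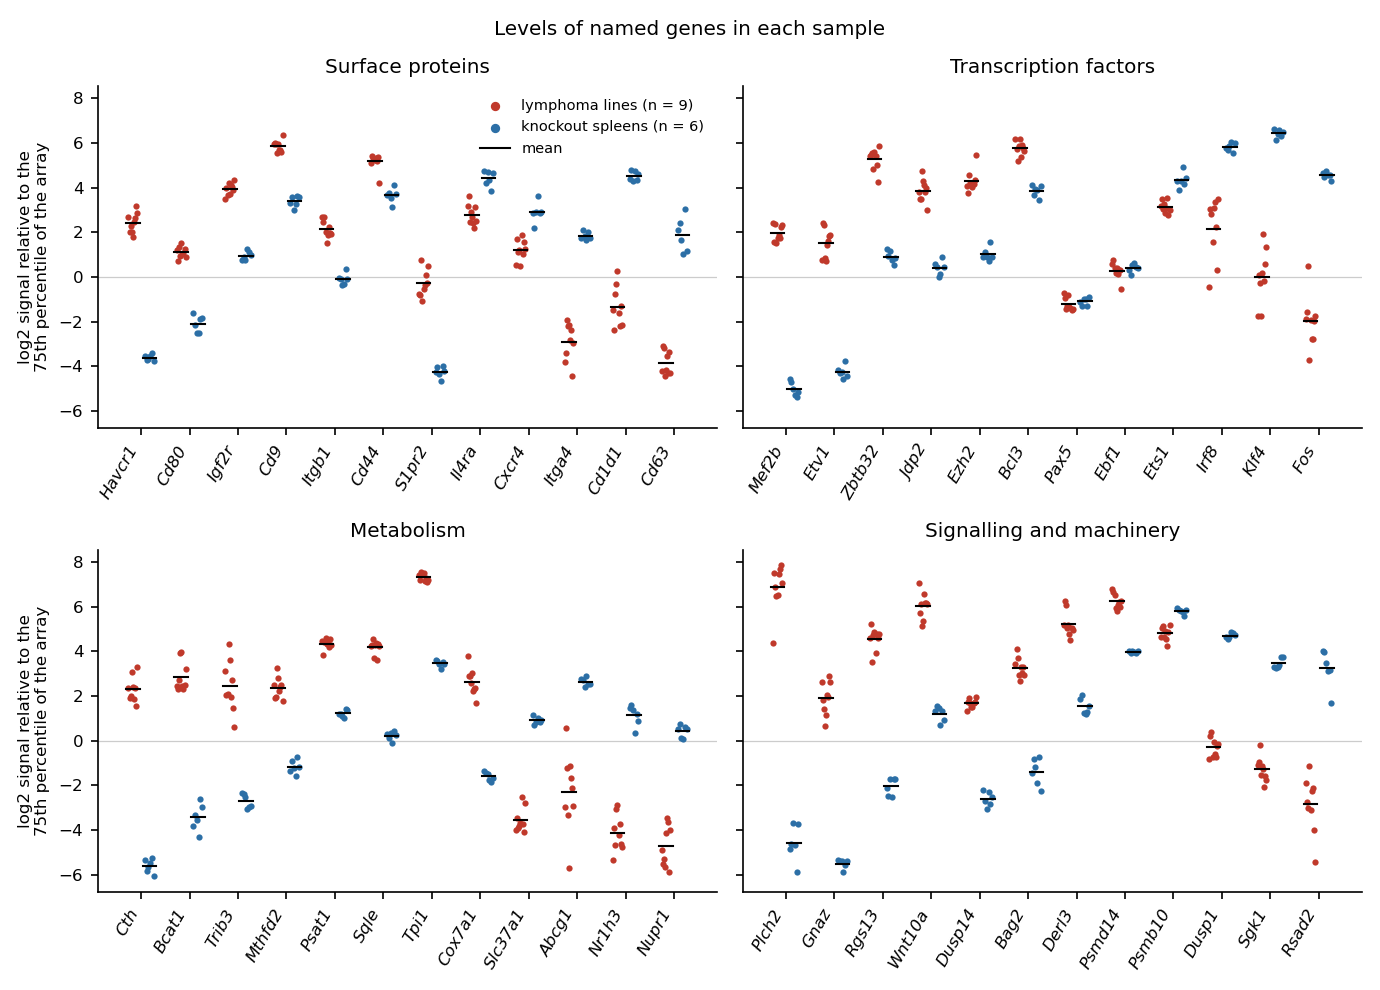
Log2 signal relative to the 75th percentile of the array (vertical axis) of 48 named genes in each of the 9 lymphoma lines (red) and 6 knockout spleens (blue), in 4 panels by class, with group means as black bars. Pax5 and Ebf1 overlap between the groups, Plch2 and Cth differ most, and lines scatter more than spleens for genes such as Irf8, Klf4 and Trib3.

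Among transcription factors, Pax5 and Ebf1 differed little while other factors of the B lineage moved in both directions, several families of induced factors held more decreases than increases, and the cell cycle group held no decrease. Of 45 B lineage factors 14 rose and 16 fell. Pax5, the factor that fixes B cell identity, was at -1.50, -1.34 and -0.72 in the lowest, median and highest line and at -1.31, -1.04 and -0.89 in the spleens. Its groups overlapped and the difference of -0.11 ± 0.13 did not pass the test (limma adjusted p = 0.475), with the sign depending on the scaling (0.48 and called with median centring). Ebf1, which opens B cell genes with Pax5, differed by -0.12 ± 0.16 (limma adjusted p = 0.516) and was also higher with median centring, at 0.47. Pou2af1, a coactivator of octamer factors, rose by 0.75 ± 0.11, Pou2f2, its octamer partner, by 1.68 ± 0.12, and Spib, an ETS factor of B cells, by 1.20 ± 0.17. Foxp1 rose by 0.80 ± 0.18 and Foxo1, a factor held out of the nucleus by AKT, fell by 0.85 on the log2 scale, though not with median centring (-0.26). Ets1, which restrains plasma cell formation, went from 3.87 to 4.95 in the spleens to 2.77 to 3.52 in the lines and fell by 1.21 on the log2 scale.

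Of 12 interferon regulatory factors (IRF) and their binding partners 9 fell and none rose, with a median of -0.80, while 1 rose and 4 fell with median centring. Irf8, a factor of B cells and myeloid cells, was at -0.43, 2.81 and 3.48 in the lowest, median and highest line and at 5.57, 5.82 and 6.03 in the spleens. Every line was below every spleen, but the lines spanned a wide range, and the difference was -3.66 ± 0.46 (limma adjusted p = 3.83e-07). Irf7, which amplifies interferon production, was at -2.61 to -0.59 in the lines and 1.41 to 2.36 in the spleens and fell by 3.22 on the log2 scale. Irf4, a factor of activated B cells and plasma cells, fell by 0.63 on the log2 scale with overlapping groups, though not with median centring (-0.04).

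Fos and Nr4a2, which are known as immediate early genes, and Klf4 were lower in the lines. Fos, a partner of Jun in the AP-1 complex, was at -3.72, -1.90 and 0.47 in the lowest, median and highest line and at 4.28, 4.57 and 4.74 in the spleens. No line came near the spleens, and the difference was -6.53 ± 0.39 (limma adjusted p = 2.34e-12). Klf4, a factor that keeps lymphocytes quiescent, was at -1.76, 0.09 and 1.93 in the lines and 6.12, 6.46 and 6.64 in the spleens, a difference of -6.41 ± 0.41. Nr4a2, an orphan nuclear receptor induced by antigen receptor signals, differed by -6.16 ± 0.71, and its lines ranged from -5.82 to -0.02. Over the families, 14 of 23 KLF, SP and EGR zinc fingers fell and 2 rose, with a median of -0.49 that median centring turned to 0.10. Read against all genes, this median was -0.79 over all samples, -1.14 without line 4 and -1.21 without line 5. Of 23 nuclear receptors 12 fell and 4 rose (median -0.65), including Rxra, the shared partner of many of them, which was above background in 7 of 9 lines. Rxra differed by -6.09 ± 0.32, but by -3.51 with normexp background correction and by -1.18 with its other tested probe. In single lines the median of the nuclear receptor list ranged from -1.26 to 0.13 and overlapped the spleens at -0.25 to 0.14.

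The leucine zipper families of AP-1, ATF, CREB and C/EBP did not move as a block, with 11 of 33 higher, 14 lower and a median of 0.08. Batf3, a factor of dendritic cells and some lymphocytes, differed by -6.22 ± 0.49 and Atf3, a stress-induced factor, by -5.46 ± 0.41, while Jun, Junb and Fosb also fell. Jdp2, a repressor that dimerizes with Jun, went the other way, from -0.02 to 0.92 in the spleens to 3.00 to 4.75 in the lines, and rose by 3.44 ± 0.23. Atf5 rose by 2.90, Batf, which supports antibody class switching, by 2.42, and Xbp1, the factor of the unfolded protein response, by 2.21.

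NF-kB proteins are held in the cytoplasm by inhibitors and enter the nucleus after receptor signals, and the study's title connects these lymphomas with NF-kB. Of 17 subunits and inhibitors 3 rose and 10 fell, with a median of -0.43 that turned to 0.16 with median centring. Tnfaip3, the A20 enzyme that ends NF-kB signals, was at 0.90, 1.95 and 3.07 in the lowest, median and highest line and at 4.62, 5.06 and 5.16 in the spleens. All lines were lower, by 3.05 on the log2 scale. Nfkb2, the precursor of the p52 subunit, fell by 1.70 on the log2 scale, from 3.66 to 4.32 to 1.68 to 2.73. Bcl3, an atypical inhibitor that works with p50 and p52 in the nucleus, was at 5.21 to 6.19 in the lines and 3.47 to 4.10 in the spleens and rose by 1.90 ± 0.16 (limma adjusted p = 5.35e-10).

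Among factors that rose, Mef2b was at 1.53, 1.89 and 2.40 in the lowest, median and highest line and at -5.36, -5.07 and -4.57 in the spleens, groups that lay far apart. Etv1, an ETS factor known from prostate and nerve cells, rose by 5.78 ± 0.25, and Ehf, an ETS factor of epithelia, by 5.04 ± 0.23. Zbtb32, a repressor of activated lymphocytes, was at 4.28 to 5.87 in the lines and 0.54 to 1.23 in the spleens and rose by 4.37 ± 0.22. Hmgn3, a nucleosome binding protein, rose by 3.17 ± 0.15 and Tcf4, an E protein of B cells, by 2.50 ± 0.19, or 3.99 with the other tested probe of Tcf4. Of 19 E2F and DREAM factors, which time the genes of S phase and mitosis, 12 rose and none fell, with a median of 0.46, led by Foxm1 at 2.74 ± 0.25. Ezh2, the histone methyltransferase of the polycomb complex that is active in germinal centres, went from 0.73 to 1.56 in the spleens to 3.75 to 5.47 in the lines and rose by 3.28 ± 0.20. Germinal centre genes were not counted as a list. Mef2b, Rgs13, S1pr2, Fas and Ezh2 are single genes that rose and do not describe that group. Decreases among other families included Maff, a small MAF protein (-3.72 ± 0.26), Nfe2l2, the factor of antioxidant genes (-2.49 ± 0.19), the DNA methyltransferase Dnmt3a (-2.43 ± 0.24) and the aryl hydrocarbon receptor Ahr (-3.61 ± 0.55).

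Metabolic genes rose in a larger share than all genes, 59.0% against 47.3%, and the lists differed among themselves. When amino acids run short or proteins misfold, the kinases of the integrated stress response raise translation of ATF4, which switches on enzymes, transporters and tRNA synthetases for amino acids. Of 44 genes of the ATF4 amino acid response 34 rose and 5 fell, with a median of 1.75, and in 31 of those that rose the groups did not overlap. The median of the list in single samples was 1.30 to 2.30 in the lines, highest in line 4, and -0.11 to 0.13 in the spleens. Atf4 itself rose by 0.71, and Ddit3, the stress factor CHOP, had a difference of 0.57 that did not pass the test. Ddit3 was called with the slide as a fixed block (0.90, limma adjusted p = 0.019), with median centring (1.16) and without line 9 (0.84).

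The promoters of the list were searched on both strands for TGATGNAA, the core of the amino acid response element that ATF4 binds, in windows from 250 bases before to 50 bases after each gene's start in the RefSeq table of build GRCm38.p6. It was present in 17 of 49 promoters (34.7%) against 3.97% of 32851 promoters of the same length. Members with the motif moved in both directions, but most of them rose. The windows below show 4 of those that rose and the only 2 that fell, so they do not give the proportions. The first 4 belong to genes that rose and the last 2 to genes that fell, each runs 5′ to 3′ on the strand of the gene and ends at its start or before it, and capitals mark the motif or its reverse complement.
Asns, chr6:7693210-7693262, minus strand: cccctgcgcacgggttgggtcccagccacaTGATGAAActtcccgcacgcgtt
Chac1, chr2:119351019-119351086, plus strand: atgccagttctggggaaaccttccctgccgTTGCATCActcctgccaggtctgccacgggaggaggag
Aars, chr8:111033700-111033767, plus strand: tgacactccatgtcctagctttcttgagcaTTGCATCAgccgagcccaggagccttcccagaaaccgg
Jdp2, chr12:85599353-85599415, plus strand: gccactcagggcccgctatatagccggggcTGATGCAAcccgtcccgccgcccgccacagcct
Nupr1, chr7:126625543-126625610, minus strand: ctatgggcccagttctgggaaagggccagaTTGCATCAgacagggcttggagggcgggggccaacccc
Atf3, chr1:191183406-191183473, minus strand: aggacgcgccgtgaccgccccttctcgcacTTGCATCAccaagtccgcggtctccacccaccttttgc
A match is a description of these letters and does not show binding. The ATF4 list here and the interferon list below are named for these responses. Their shares of matches are therefore no independent test of them.

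Asns, which makes asparagine, was at 5.66, 6.28 and 7.48 in the lowest, median and highest line and at 1.53, 3.28 and 3.66 in the spleens, higher in all lines by 3.45 ± 0.37. Chac1, which breaks down glutathione, was at 0.78 to 4.04 in the lines and -1.25 to -0.32 in the spleens, and Aars, the alanyl-tRNA synthetase, rose by 1.90 ± 0.12. Trib3, a pseudokinase that feeds back on ATF4, was at 0.60, 2.08 and 4.32 in the lines and -3.07, -2.73 and -2.36 in the spleens, a rise of 5.16 ± 0.39 (limma adjusted p = 1.19e-10). Slc1a4, a transporter of neutral amino acids, rose by 5.26 ± 0.32, or 3.07 with normexp background correction. With the same motif in its promoter, Nupr1, a stress-induced chromatin protein, was at -5.89, -4.91 and -3.45 in the lines and at 0.08, 0.54 and 0.73 in the spleens, a difference of -5.16 ± 0.33, or -2.94 with normexp background correction. Atf3 and 3 further members also fell: Ppp1r15a (-3.49), the phosphatase subunit that ends the stress response, Cebpb (-2.43), a C/EBP factor, and Slc38a2 (-0.51, but 0.07 with median centring), a glutamine transporter.

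Serine synthesis and the folate pathway feed nucleotide synthesis with one-carbon units. Of 22 genes of this pathway 18 rose and none fell (median 1.02). Psat1, a transaminase of serine synthesis, was at 3.84, 4.43 and 4.61 in the lowest, median and highest line and at 1.03, 1.19 and 1.41 in the spleens, and rose by 3.13 ± 0.12 (limma adjusted p = 6.66e-16). Phgdh, the first enzyme of that route, rose by 1.98 ± 0.13 and Shmt2, the mitochondrial serine hydroxymethyltransferase, by 2.15 ± 0.12. Mthfd2, the mitochondrial folate enzyme, went from -1.58 to -0.75 in the spleens to 1.80 to 3.28 in the lines and rose by 3.53 ± 0.19. Bcat1, the cytosolic transaminase of branched-chain amino acids, was at 2.32 to 3.99 in the lines and -4.33 to -2.63 in the spleens, a rise of 6.31 ± 0.30. Cth, which rose most among metabolic genes, was at 1.53, 2.37 and 3.28 in the lines and at -6.07, -5.57 and -5.27 in the spleens. Of 39 aminoacyl-tRNA synthetases and their cofactors 29 rose and 1 fell (median 0.85), led by Nars at 2.95 ± 0.28. In purine synthesis 26 of 30 rose and 1 fell (median 0.88), and Nt5e, the surface enzyme CD73 that makes adenosine, rose by 3.62 ± 0.38.

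Most genes that make or take up sterols rose and most that export them fell. Cells sense sterols through SREBP2, which raises synthesis and uptake when membranes are poor in cholesterol, and through LXR, which raises export when oxysterols accumulate. Of 30 genes of cholesterol synthesis and uptake 26 rose and 1 fell, with a median of 2.35, and the groups did not overlap for 23 of those that rose. The median of the list was 1.99 to 2.66 in single lines and -0.08 to 0.09 in single spleens. Sqle, the squalene epoxidase, was at 3.59, 4.28 and 4.54 in the lowest, median and highest line and at -0.09, 0.27 and 0.42 in the spleens, and rose by 3.96 ± 0.13 (limma adjusted p = 1.54e-16). Fdps, which makes farnesyl diphosphate, rose by 3.80 ± 0.16 and Srebf2, the gene of SREBP2, by 2.41. Mylip, a ubiquitin ligase that is itself an LXR target, fell, with 8 of 9 lines above background and a range of -6.62 to 2.39 in the lines against 3.14 to 3.72 in the spleens.

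A motif of the sterol response element, TCACNCCAC, was found in 1 of 29 promoters of this list (3.45%) and in 1.24% of all 32851. The promoter was that of Hmgcs1, which encodes an early synthase of the pathway and rose by 2.80 ± 0.15, from 2.13 to 2.39 in the spleens to 4.39 to 5.74 in the lines. The window is shown as the only match, with the motif in capitals, GRCm38.p6, from the RefSeq table.
Hmgcs1, chr13:119690184-119690252, plus strand: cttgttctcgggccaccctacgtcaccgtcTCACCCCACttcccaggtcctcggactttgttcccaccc

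On the export side 10 of 12 genes fell and 1 rose, with a median of -2.97 (between -2.97 and -1.66 over the scalings and background corrections tried). Nr1h3, which encodes LXR alpha, was at -5.34, -4.20 and -2.87 in the lowest, median and highest line and at 0.36, 1.29 and 1.59 in the spleens, a difference of -5.28 ± 0.31 (limma adjusted p = 1.46e-12). Abcg1, a sterol exporter, was at -5.68, -2.13 and 0.57 in the lines and 2.38, 2.63 and 2.89 in the spleens, a wide spread in the lines with no overlap. Abca1, the other main exporter, was above background in 7 of 9 lines and differed by -5.23 ± 0.78, or -3.38 with normexp background correction. Scarb1, the receptor for high density lipoprotein, was the 1 gene that rose, by 0.81. The list also holds Ncoa4, an autophagy receptor for ferritin, which fell by 0.93 on the log2 scale, though not with median centring (-0.34). Several exporters are strong in macrophages, whose markers fell in 17 of 18 tested cases and in 7 of 8 above background in both groups. The part of these cells in the decreases was not tested. In fatty acid synthesis Scd2, a desaturase, rose by 3.35 ± 0.16.

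**Figure D4:**
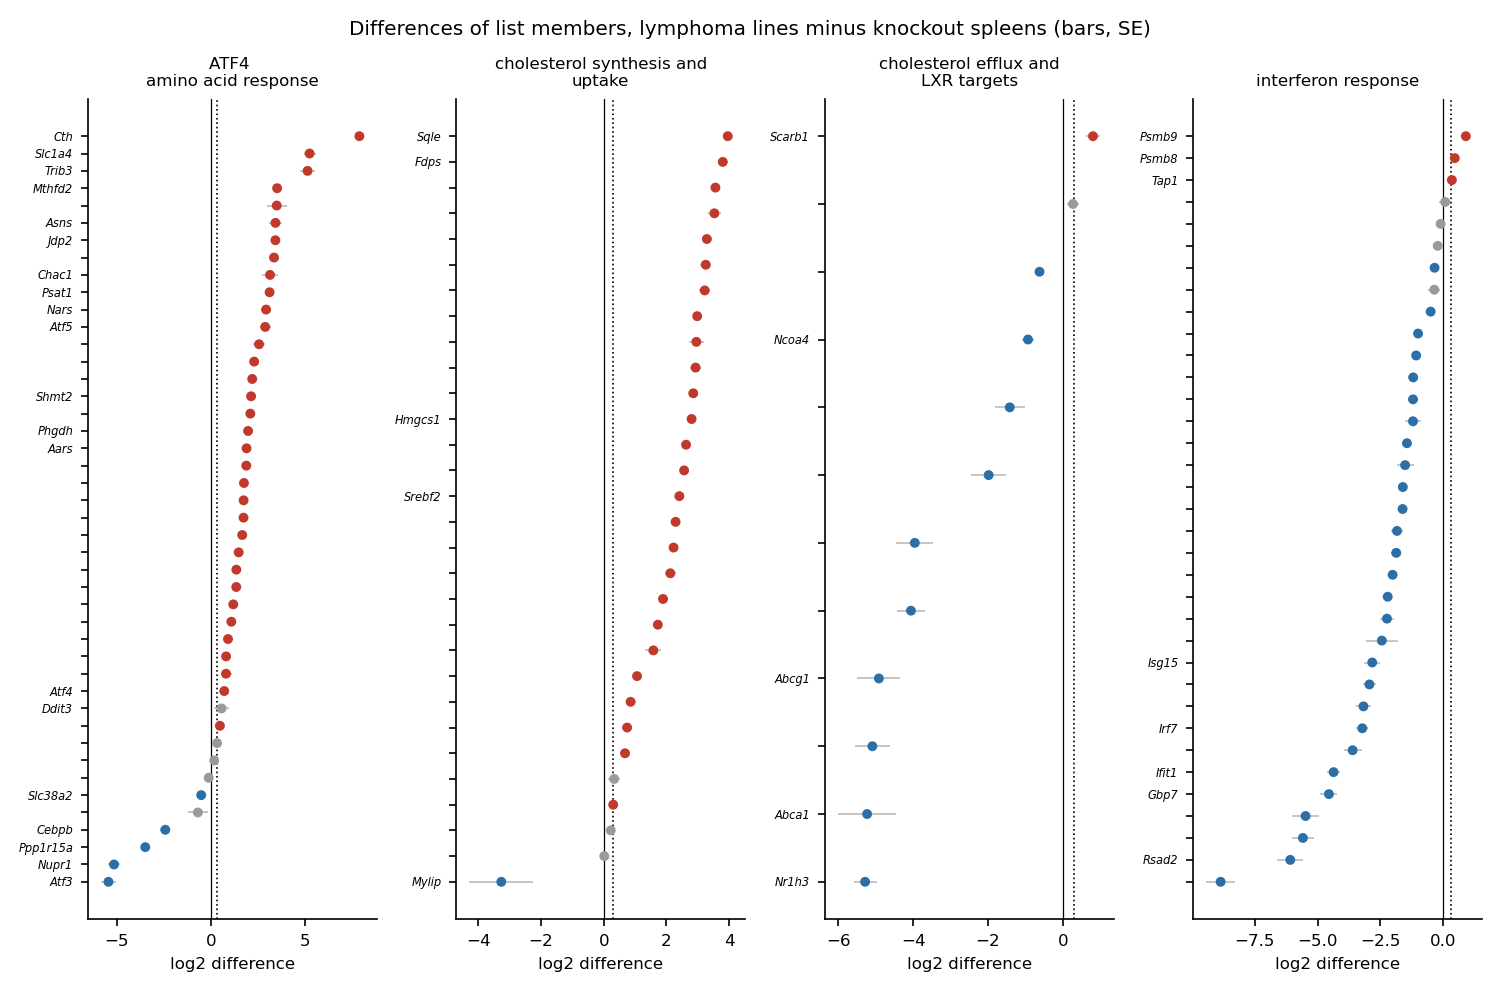
Log2 difference of each member above background in both groups (horizontal axis, lymphoma lines minus knockout spleens, bars are SE) for 4 gene lists, red for genes that rose, blue for genes that fell and grey for genes that did not pass the test, with a dotted line at the median of all 11634 genes, 0.31, and names beside the members named in the text. The ATF4 and cholesterol synthesis lists lie mostly to the right, with Atf3, Nupr1 and Mylip far to the left, and the efflux and interferon lists lie mostly to the left.

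Glycolytic genes moved in both directions. Of 29 genes 17 rose and 8 fell, and the median was 1.32. Tpi1, the triose phosphate isomerase, was at 7.12, 7.28 and 7.54 in the lowest, median and highest line and at 3.22, 3.48 and 3.63 in the spleens, with little spread in either group and a rise of 3.86 ± 0.11 (limma adjusted p = 8.99e-18). Aldoc, an aldolase, rose by 4.17 ± 0.52, but its lowest line was at 0.90 and its median line at 4.00. Hk2, the inducible hexokinase, rose by 2.82 ± 0.20 and Pkm, the pyruvate kinase of dividing cells, by 2.97 ± 0.17, while Ldha, the lactate dehydrogenase chain favoured in glycolytic cells, rose by 2.18. Hk3, a hexokinase of myeloid cells, was above background in 8 of 9 lines with levels of -6.34 to -2.60, against -0.02 to 2.16 in the spleens. Ldhb, the other lactate dehydrogenase chain, differed by -3.42 ± 0.69 (-2.11 with normexp background correction), with -7.13 in the lowest and -0.53 in the highest line. Slc2a3, a glucose transporter, fell by 2.73 on the log2 scale and Slc2a1, the transporter of most dividing cells, rose by 1.09. Bnip3, a mitophagy receptor of the hypoxia response, was at 3.20 to 5.47 in the lines and -0.73 to -0.24 in the spleens and rose by 5.02 ± 0.23.

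Nuclear genes of the mitochondrion rose by small and even amounts. Of 44 genes of respiratory complex I 43 rose and none fell (median 0.82), of 52 genes of complexes II to V 49 rose and 1 fell (median 0.71), of 77 mitochondrial ribosomal proteins 75 rose and 1 fell (median 0.85), and of 30 genes of the tricarboxylic acid (TCA) cycle and pyruvate entry 23 rose and 1 fell (median 0.63). These medians are 0.32 to 0.54 above that of all genes, and quantile normalization brought the excess down to 0.17 for complex I and 0.04 for complexes II to V. Cox7a1, a subunit isoform of cytochrome oxidase known from muscle, was far outside this range, with 1.70, 2.59 and 3.81 in the lowest, median and highest line and -1.87, -1.59 and -1.34 in the spleens, a rise of 4.23 ± 0.21 (limma adjusted p = 1.09e-13). Cox17, a copper chaperone of the same enzyme, rose by 1.45 ± 0.22, Mrpl35, a protein of the large mitochondrial ribosomal subunit, by 1.87 ± 0.15 (0.74 with its other tested probe), and Suclg1, a subunit of succinyl-CoA ligase, by 1.69 ± 0.11.

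Other metabolic genes differed in both directions. Slc37a1, a sugar phosphate exchanger of the endoplasmic reticulum, was at -4.09 to -2.50 in the lines and 0.71 to 1.17 in the spleens (-4.47 ± 0.20). H6pd, which makes NADPH in the endoplasmic reticulum, differed by -4.41 ± 0.23 and the glutathione transferase Gstm1 by -3.58 ± 0.37. Sphk1, a kinase that makes sphingosine phosphate, was above background in 7 of 9 lines and differed by -7.83 ± 0.58, or -5.17 with normexp background correction. Mgll, which hydrolyses monoacylglycerols, rose by 3.51 ± 0.33, and Ido1, which breaks down tryptophan, rose by 4.98 ± 0.60 with lines between -2.56 and 2.51.

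**Figure D5:**
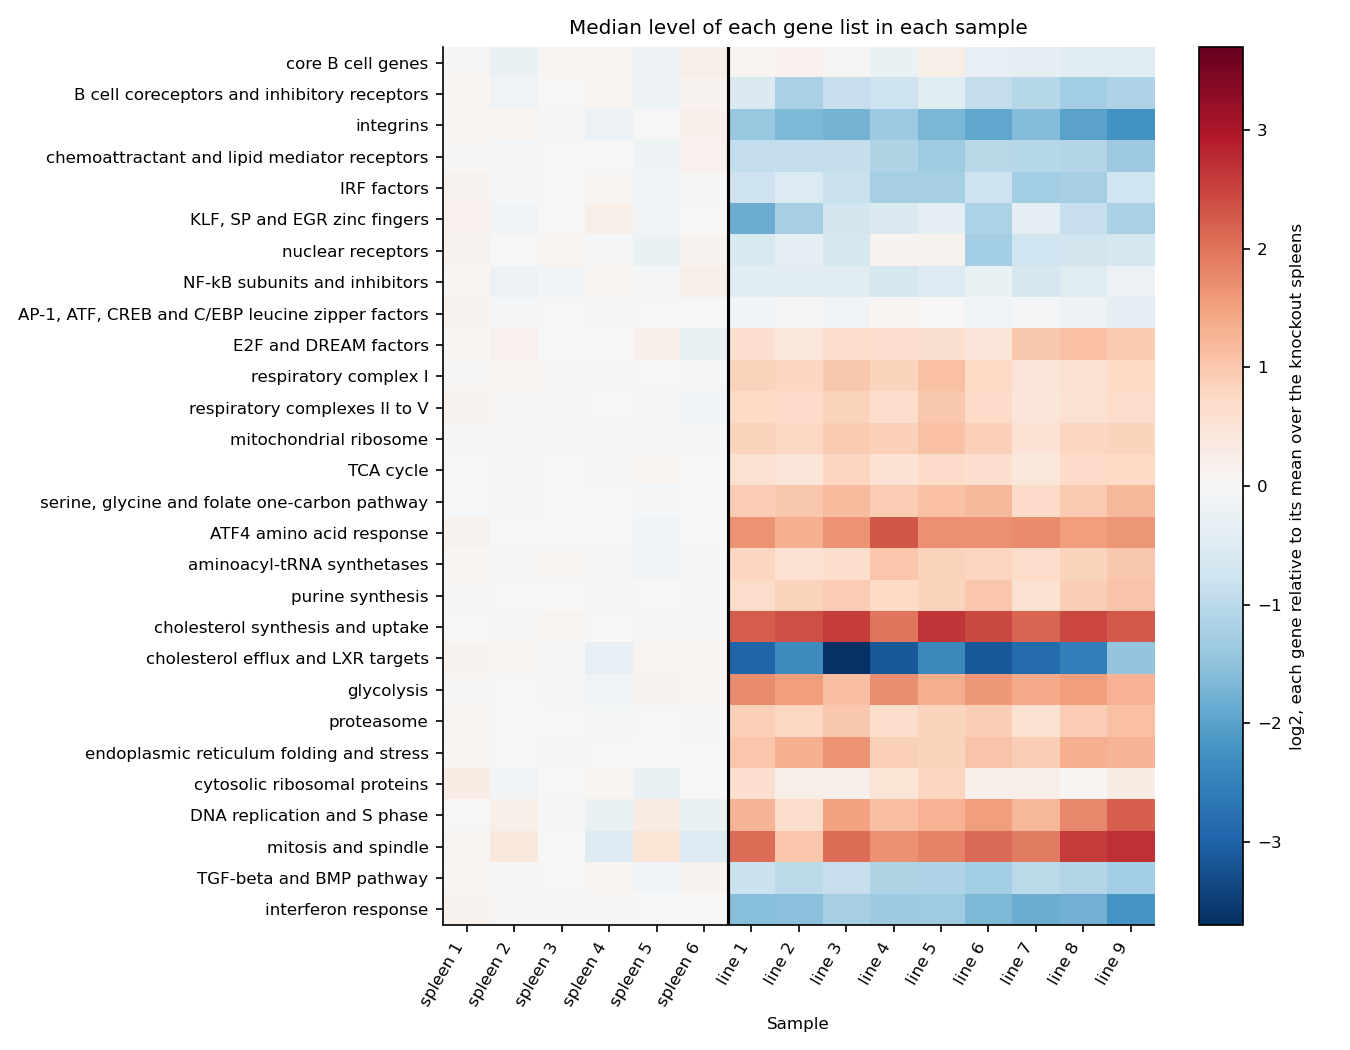
Median log2 level of the members of each gene list (rows) in each knockout spleen and lymphoma line (columns), each gene relative to its mean over the 6 knockout spleens, from blue (lower) to red (higher). The 9 lines share the direction of most lists, with cholesterol synthesis between 1.99 and 2.66 in every line, while core B cell genes and cytosolic ribosomal proteins stay near the spleens and mitosis ranges from 1.04 in line 2 to 2.70 in line 9.

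Most genes of translation, folding and cell division were higher, 381 of 454, or 301 with quantile normalization. Of 46 proteasome genes 43 rose and 1 fell (median 0.90), and of 62 genes of endoplasmic reticulum folding and stress 55 rose and 3 fell (median 1.19). Psmd14, the deubiquitinase of the proteasome lid, went from 3.92 to 4.02 in the spleens to 5.80 to 6.81 in the lines, and rose by 2.28 ± 0.13. Psmb10, a catalytic subunit of the immunoproteasome, was the member that fell, from 5.57 to 5.95 to 4.26 to 5.17, a difference of -0.99 ± 0.12, while Psmb9, another subunit of the immunoproteasome, rose by 0.90 ± 0.12. Derl3, a channel component for misfolded proteins, was at 4.50, 5.06 and 6.24 in the lowest, median and highest line and at 1.20, 1.42 and 2.04 in the spleens, a rise of 3.69 ± 0.22. Sec11c, a subunit of the signal peptidase, rose by 3.40 ± 0.25. Dnajb9, a cofactor of the chaperone BiP and a known target of Xbp1, fell by 1.24 on the log2 scale, while Xbp1 rose. Bag2, a cofactor that blocks the ligase CHIP, rose by 4.67 ± 0.25. Cytosolic ribosomal proteins stayed close to all genes, with 50 of 79 higher, none lower and a median of 0.33. Of 54 genes of DNA replication 53 rose (median 1.38) and of 58 mitotic genes 54 rose (median 2.00), and none of either list fell.

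Signalling genes moved in both directions within most families described here. B cells use G protein-coupled receptors for guidance and small GTPases for growth and shape. Of 43 G protein subunits and regulators 21 rose and 11 fell (median 0.34). This was close to all genes, of which 47.3% rose and 22.1% fell (median 0.31), so the list as a whole did not stand out. Rgs13 was at 3.51, 4.72 and 5.20 in the lowest, median and highest line and at -2.51, -1.90 and -1.69 in the spleens, and Gnaz at 0.66 to 2.90 and -5.90 to -5.35. Both pairs of groups lay far apart. Rgs1, a brake on chemokine receptors, went the other way and differed by -7.39 ± 0.73, with 8 of 9 lines above background and a range of -7.50 to -0.55 in the lines. Gng11, a gamma subunit, differed by -4.82 ± 0.20. Rapgef3, an exchange factor for RAP1 that is opened by cyclic AMP, was at 3.23 to 6.30 in the lines and 1.16 to 1.57 in the spleens and rose by 3.66 ± 0.36. Arhgef18, a guanine nucleotide exchange factor, was above background in 7 of 9 lines and differed by -7.75 ± 0.35.

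Phosphatases of the MAP kinases also divided. Dusp1, an early response phosphatase, was at -0.82, -0.24 and 0.40 in the lowest, median and highest line and at 4.57, 4.68 and 4.86 in the spleens. The groups were tight and far apart, and the difference was -5.01 ± 0.16 (limma adjusted p = 5.11e-17). Dusp14 was at 1.34 to 1.94 in the lines and -3.06 to -2.21 in the spleens and rose by 4.27 ± 0.21. Sgk1, a kinase induced by serum and glucocorticoids, was at -2.09 to -0.18 in the lines and 3.27 to 3.76 in the spleens, a difference of -4.75 ± 0.20. Pim2, a survival kinase of B cells, rose by 2.22 ± 0.18. Wnt10a, a Wnt ligand, was at 5.13, 6.13 and 7.04 in the lines and 0.70, 1.34 and 1.53 in the spleens and rose by 4.83 ± 0.24, and Fzd1, a Wnt receptor, rose by 3.94 ± 0.24. The Wnt pathway did not rise as a list. Of its 35 genes above background in both groups 13 rose and 8 fell, with a median of 0.28 beside 0.31 for all genes. Of its 50 tested genes 14 rose and 19 fell.

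The TGF-beta and bone morphogenetic protein pathway restrains growth of B cells and had few increases. Of 38 genes 3 rose and 23 fell (median -0.98). Smad3, which carries the signal to the nucleus, was at -3.88, -2.31 and 0.38 in the lowest, median and highest line and at 0.55, 0.69 and 1.03 in the spleens, and fell by 2.91 on the log2 scale. Tgif2, a repressor of SMAD targets, differed by -4.12 ± 0.28. Tgfb3, a ligand, was above background in 8 of 9 lines and differed by -3.80 ± 0.59, or -2.34 with normexp background correction. The receptors Tgfbr1 and Tgfbr2 fell by 1.06 and 1.27 on the log2 scale. Stromal markers, which include other sources of these genes, were lower in 12 of 17 tested cases and in 3 of 6 above background in both groups. Their part was not tested.

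Interferons signal through STAT factors and Irf9 to genes that block viruses. Of 35 genes 28 fell and 3 rose, with a median of -1.62. The median of the list was -2.18 to -1.21 in single lines and -0.08 to 0.13 in single spleens. The core of the interferon-stimulated response element, GAAA followed after any 2 bases by GAAA, was present on either strand in 17 of 39 promoters of the list (43.6%) and in 3.44% of all 32851, and windows of 3 genes that fell are shown with the motif or its reverse complement in capitals, GRCm38.p6, from the RefSeq table.
Isg15, chr4:156200851-156200920, minus strand: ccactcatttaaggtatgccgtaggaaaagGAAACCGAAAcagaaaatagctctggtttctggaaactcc
Rsad2, chr12:26456533-26456602, minus strand: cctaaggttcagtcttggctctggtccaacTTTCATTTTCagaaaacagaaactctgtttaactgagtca
Gbp7, chr3:142530253-142530322, plus strand: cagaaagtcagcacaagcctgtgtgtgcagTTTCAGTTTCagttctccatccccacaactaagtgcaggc
Isg15, a modifier attached to proteins, had 3 overlapping matches, of which the middle is marked, and was at -1.88, -0.77 and 0.27 in the lowest, median and highest line and at 1.18, 2.27 and 2.80 in the spleens. The groups did not overlap, and the difference was -2.83 ± 0.31 (limma adjusted p = 4.64e-08). Rsad2, the antiviral enzyme viperin, was at -5.41, -2.73 and -1.11 in the lines and 1.67, 3.31 and 4.02 in the spleens, a difference of -6.09 ± 0.51. Gbp7, a GTPase that attacks the membranes of pathogens, differed by -4.55, or -2.37 with normexp background correction. Ifit1, which binds viral RNA, was above background in 5 of 9 lines and differed by -4.37 ± 0.26, but by -1.65 with normexp background correction. The 3 that rose serve antigen presentation, Psmb9 by 0.90, Psmb8 by 0.46 (-0.04 with quantile normalization) and Tap1 by 0.34, which was not called with quantile normalization (0.05), normexp (0.26) or the slide as a fixed block (0.18) or a random block (0.28), nor in 6 of the 15 fits that left out 1 sample. Psmb8 was not called with normexp either (0.39). Macrophage, dendritic and natural killer markers fell beside this list in the counts given above, and their part was not tested.

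Of the 6 slides 5 held both lines and knockout spleens and 1 held 3 lines and no spleen. Within single slides of the 5, the median difference of cholesterol synthesis was 2.32 to 2.53, that of the ATF4 list 1.25 to 1.94, that of the interferon list -1.89 to -1.18, that of integrins -2.22 to -1.10 and that of cholesterol efflux -3.78 to -2.25, each on the side of the value over all samples. Core B cell genes lay between -0.19 and 0.27 and changed sign between slides. DNA replication lay between 0.46 and 1.80 and mitosis between 0.83 and 2.65. Lines 7, 8 and 9 were on the slide without spleens. The median of the E2F list was 0.97 to 1.09 in them and 0.41 to 0.68 in the other lines. With only the lines on slides that held spleens, mitosis was 1.43 above all genes rather than 1.70, and DNA replication 0.84 rather than 1.07. The part of that slide in these lists was not tested.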

How the data were processed

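RNA was measured on 23 one-colour Agilent arrays of 22 samples. Per the file headers, the authors deposited scanner output of Agilent Feature Extraction 10.7.1.1, in which the processed signal is an intensity after background subtraction, not normalized between arrays. The deposited value table holds log2 values; set against the scanner values, it is the same signal with the median of each of its 41174 probes at 0, and it was used as an alternative.

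From the processed signal, 1639 control spots per array and 1556 flagged spots over all arrays were left out of 43379 further spots per array, spots of a probe were averaged, and log2 values were taken after subtraction of the array's own 75th percentile. Of 41174 probes 26690 were given a symbol through their RefSeq accession, for 18217 genes. A gene was tested if it had a probe well above background in at least 6 of 22 samples. Among such probes the 1 with the highest mean level over the 22 samples was used. limma 3.58.1 in R 4.3.3, with version 1.17.8 of data.table, fitted the 22 samples in 3 groups (lmFit and eBayes), with Benjamini-Hochberg adjustment over 13742 genes and a threshold of 0.05. The number of arrays limits the precision. The scripts were tested on simulated data.

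The members and gene lists were chosen with earlier results of these data known. Named genes were the 10 largest called increases and decreases above background in all 15 samples, up to 6 per class and direction and up to 2 per list and direction among called genes with no overlap between the groups, and a fixed set of known B cell genes and pathway genes; further members were named after their values were seen. The integrin list was narrowed to integrin chains after the files were read. Alternatives were normexp background correction (offset 50, on the median foreground signal), quantile normalization, median centring, centring on core B cell genes, the value table, other filters, the mean over probes, a fit without wild-type spleens, the slide as a block, either array of line 8, leaving out each sample, and, chosen after seeing the data, only the 6 lines on slides that held knockout spleens. Some genes and 1 list are not reported here.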

Additional observations from a re-analysis of the deposited data

Results flagged for a closer look

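In 396 sets of values, 170 genes and 28 lists in each of the 2 groups, a sample whose gap to its nearest neighbour was large beside the range of its group was looked for. Such a gap was found in 23 sets, 16 in the lines and 7 in the spleens, and chance gives it in about 1 in 20 sets. No explanation was tested.

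Line 9 stood apart most often, low for Cd44 (4.22), Tcf4 (3.64) and Ebf1 (-0.55), high for Ezh2 (5.47) and low for Tgfbr1 (-0.79). Line 2 was high for Batf3 (-0.89) and low for Ahr (-5.52) and Shmt2 (3.64). Line 1 was low for Plch2 (4.39) and Suclg1 (4.82), line 3 was high for the haemoglobin gene Hba-a1 (0.97), and line 4 was high for Slc1a4 (1.77) and for the median of the ATF4 list (2.30). Line 5 was high for Ldha (7.81), line 6 low for Ppp1r15a (-0.059) and line 7 high for Sphk1 (-2.63).

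Among the knockout spleens, spleen 2 was low for Serpinb1a (4.68), Atf4 (1.69) and Suclg1 (3.59). Spleen 3 was low for Nars (-0.23), spleen 4 for Gnaz (-5.90), and spleen 6 for Tspan33 (2.03) and Rsad2 (1.67). In each of these sets except that of Ebf1 the lines and spleens did not overlap.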

How the results depend on the processing

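No paired analysis was possible because replicate numbers were given in accession order and pair no samples, and the slide, which held both groups on 5 of 6 slides, was used as a block instead. List values here are medians minus that of all genes. Of 170 named genes 156 had a value under every alternative other than leaving out a sample, and 142 of these kept direction and call under each. Genes without such a value were not above background in all 15 samples and were left out by that filter. When any 1 sample was left out 166 kept both. Of 28 lists 6 stayed within the spread between samples under every alternative other than leaving out a sample.

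With normexp the count of all tested genes that fell was 2447, and the list values were -1.47 for integrins, -1.12 for chemoattractant receptors, -0.56 for nuclear receptors, 0.37 for complex I, 0.25 for complexes II to V, 0.39 for the mitochondrial ribosome, 0.17 for the TCA cycle, 0.39 for aminoacyl-tRNA synthetases, 0.42 for purine synthesis, 1.86 for cholesterol synthesis, -2.01 for efflux and -0.94 for the TGF-beta pathway, and Pax5 was at 0.0050. With quantile normalization they were -1.45 for coreceptors, -2.05 for integrins, -0.93 for NF-kB, 0.44 for E2F factors, 0.17 for complex I, 0.044 for complexes II to V, 0.36 for the mitochondrial ribosome, 0.13 for the TCA cycle, 1.20 for the ATF4 list, 0.40 for aminoacyl-tRNA synthetases, 0.39 for purine synthesis, 0.23 for the proteasome, 0.60 for endoplasmic reticulum folding and -0.20 for cytosolic ribosomal proteins, against 0.019 in the reported fit. That setting also gave Cd79b at -0.086, Ms4a1 at -0.14, Pax5 at 0.014 and Psmb8 at -0.039. Median centring left 1343 decreases among genes above background in both groups and 2598 among all tested, and turned Pax5 to 0.48, Ebf1 to 0.47, Cxcr5 to 0.24 and Slc38a2 to 0.074. Another Slc38a2 probe also had the opposite sign, the only 1 of 53 named genes with a further tested probe.

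The interferon list was at -2.15 in the deposited value table and, to the same digits, in the fit of lines and knockout spleens only. Restricting to genes above background in all 15 samples left 2089 decreases and gave -1.81 for integrins, -1.19 for chemoattractant receptors, -1.83 for efflux and 1.49 for glycolysis. The mean over probes gave -1.54 for chemoattractant receptors, -0.41 for AP-1 and related factors and 1.88 for cholesterol synthesis. With the slide as a fixed block chemoattractant receptors were at -1.20, complex I at 0.63 and Ebf1 at 0.022. With only the lines on slides that held spleens, chosen after seeing the data, Pax5 was at 0.0078 and Ebf1 at 0.0083. Leaving out 1 sample gave -1.54 to -1.27 for chemoattractant receptors and -1.21 to -0.69 for KLF, SP and EGR factors, the latter farthest without line 4 or 5. The cause of these shifts was not tested. Signals near background limit the low levels in the lines and in the spleens.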

Other observations

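Sex-linked genes divided the lines, whose sex the labels leave undetermined. Xist, the RNA that silences an X chromosome, was well above background in lines 3, 6, 7, 8 and 9 (2.54 to 4.28) and in all 6 knockout spleens (3.47 to 4.33), which were labelled female. Y-linked genes were above background in the other 4 lines, and no line had both or neither. Of those 4 lines 3 had all of Ddx3y, Eif2s3y and Kdm5d, whereas line 1 had Eif2s3y at 2.80 and Kdm5d at -0.73 but Ddx3y at -7.21.

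The 2 arrays of line 8 correlated at r = 0.96 across 11634 genes, and 1521 genes (13.1%) were at least 2-fold apart between them. Of 28 pairs of other lines 8 had a higher correlation, and the array not titled a repeat correlated more closely with 4 of 8 other lines than with its partner. The SD was larger over the lines than over the spleens for 10018 genes (86.1%).

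Other gene groups also differed from the median of all genes. Of 20 SOX, TCF/LEF and HMG factors 12 rose and 2 fell (median 0.71), of 59 genes of N-glycosylation 37 rose and 4 fell (median 0.64), and of 48 genes of apoptosis 33 rose and 8 fell (median 0.49), beside 0.31 for all genes above background in both groups.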
